A study of Mus musculus with 12 samples.

Results

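Assembled noncoding transcripts inside coding genes are RNA models that StringTie built from the reads of these libraries and that carry the name of a protein-coding gene. They were taken from the deposited noncoding table as the transcripts with an assembler name (beginning MSTRG) and a gene name that also occurs in the deposited coding table. The rule uses names alone and no measured level. It found 3890 of 42870 noncoding transcripts, in 2386 of 21771 coding genes (10.96%). Another 1750 assembled transcripts had no gene name, 1053 had a name absent from the coding table, and 21511 noncoding transcripts were annotated isoforms of coding genes.

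The cells were MTEC1, a wild-type mouse line labelled as medullary thymic epithelial. Long RNA was sequenced after ribosomal RNA removal in 3 control libraries and 3 libraries of cells given PAMK, the usual abbreviation for a polysaccharide of Atractylodes macrocephala rhizome, at 50 µg/ml for 12 h. The series design gives 6 h of culture for the controls, so treatment and time cannot be told apart. Whether replicate libraries stem from different cultures is not stated, so a p-value here weighs a difference only against the spread of these libraries, which may be technical. The cells are 1 line, and in bulk RNA fewer cells of a type and less RNA per cell cannot be told apart. Of 10 medullary epithelial markers, 7 were listed at 0 in all 6 libraries, Krt5, Krt14 and Aire among them. Of the 10, 1 reached a mean of 0.5 FPKM. Their sum was 0.609 to 0.770 FPKM in controls and 0.478 to 5.55 FPKM with PAMK. Epcam and Krt19 of the general epithelial markers were listed at 0 too. Of 8 fibroblast markers, 6 reached a mean of 0.5 FPKM, with a sum of 402 to 604 FPKM per library. Of 8 thymic cortical epithelial markers 3 reached that mean and Dll4 was at 0 throughout, with a sum of 28.5 to 42.0 FPKM. The medullary markers thus do not show the labelled cell type, and the line is called MTEC1 here. Values are FPKM (fragments per length of transcript and per number of mapped fragments), a unit inferred from the values, and the number of fragments behind each value is unknown.

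Most coding genes are transcribed far beyond their mature exons. Introns, early polyadenylation inside introns, transcripts of the opposite strand and small RNA genes nested in introns all give RNA that lies inside a coding gene and codes for no protein. In mammalian cells the nuclear exosome and its adaptors remove much of it, and the U1 snRNP protects long first introns from early cleavage. An assembler draws a transcript wherever reads cover such a stretch, so its models hold stable noncoding RNAs, alternative isoforms and intron fragments side by side.

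Some of the models begin where the coding messenger RNA begins. Of the 6 transcripts lower with PAMK that are described one by one, 5 began within 162 bases of an annotated coding start and the other, in Cds2, had no strand. Of the 6 higher with PAMK, the 4 with a strand all began over 1000 bases away. These 12 were picked by smallest p, and over all 508 tested transcripts that began within 1000 bases of a coding start 24 were higher and 25 lower at an unadjusted p under 0.05, with no such lean. The promoters of the 3 with the smallest p among those 5 are shown, for MSTRG.21611.6 in Mettl27, MSTRG.18550.2 in Creb3 and MSTRG.24970.11 in Tmem41b, because each such transcript and its messenger RNA may share this sequence. Each window holds 250 bases before and 50 after the gene's start in RefSeq (GRCm38.p6), in the direction of transcription, and lies at chr5:134932274-134932573 (plus strand), chr4:43562408-43562707 (plus strand) and chr7:109986181-109986480 (minus strand). Capitals mark a GC box (GGGCGG or CCGCCC on the other strand), a TATA box (TATAAA or TTTATA) or a CCAAT box (CCAAT or ATTGG).
Mettl27: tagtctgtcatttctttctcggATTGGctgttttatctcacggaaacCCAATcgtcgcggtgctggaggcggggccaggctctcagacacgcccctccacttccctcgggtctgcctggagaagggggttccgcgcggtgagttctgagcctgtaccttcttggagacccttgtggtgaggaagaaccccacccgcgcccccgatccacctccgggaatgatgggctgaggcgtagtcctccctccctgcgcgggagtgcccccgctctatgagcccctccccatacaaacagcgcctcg
Creb3: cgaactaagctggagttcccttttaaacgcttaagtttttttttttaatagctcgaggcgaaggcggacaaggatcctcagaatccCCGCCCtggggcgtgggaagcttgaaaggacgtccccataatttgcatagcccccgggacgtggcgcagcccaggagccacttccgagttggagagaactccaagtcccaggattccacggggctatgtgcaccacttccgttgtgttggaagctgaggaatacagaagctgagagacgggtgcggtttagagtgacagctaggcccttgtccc
Tmem41b: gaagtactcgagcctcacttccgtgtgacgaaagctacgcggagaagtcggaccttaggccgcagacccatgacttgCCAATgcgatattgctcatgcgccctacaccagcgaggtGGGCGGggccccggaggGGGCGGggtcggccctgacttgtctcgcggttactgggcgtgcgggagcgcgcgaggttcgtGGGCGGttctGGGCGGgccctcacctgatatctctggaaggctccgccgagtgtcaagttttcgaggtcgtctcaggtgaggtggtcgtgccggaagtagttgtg
The Tmem41b window held 4 GC boxes and 1 CCAAT box, the Creb3 window 1 GC box, and the Mettl27 window 2 CCAAT boxes and no GC box. None of the 3 held a TATA box. Of 32851 RefSeq promoter windows of this length, 35.7% held a GC box, 13.6% a TATA box and 37.4% a CCAAT box. Among tested coding genes, a GC box stood in 67.0% of the 1529 windows of genes with an assembled noncoding transcript and in 67.9% of the 6325 windows of genes without. These matches are descriptions of letters, not sites of binding.

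The 3890 transcripts were spread thinly over their genes: 1650 of the 2386 genes held 1, 439 held 2, 150 held 3, and 19 held 10 or more. Genes with an assembled transcript were longer than other coding genes, with a median span of 39370 against 15076 bases. They were also more often detected, since 80.4% reached a mean of 0.5 FPKM against 40.6% of the other 19385 coding genes.

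By strand the transcripts fell into 3 classes of like size. No strand was given for 1478 (38.0%), 1240 (31.9%) lay on the strand opposite to the coding gene and 1172 (30.1%) on the same strand. No source used here gives the strand setting of the authors' counting, so reads of a coding gene and of a transcript opposite to it cannot be told apart. Most (3472) lay wholly within the coding span, 349 reached beyond it and 69 lay outside it, at a median gap of 4033 bases. A coding gene of another name was overlapped by 382 (9.82%).

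The deposited tables give genomic ends and no exons, so length here is the genomic span, introns included. The median span was 1196 bases, from 201 to 888714. It was 488 bases for transcripts without a strand, 1760 for the opposite strand and 4667 for the same strand. Annotated noncoding isoforms of coding genes spanned a median of 4008 bases, and assembled transcripts with no gene name 497. The 3 shortest members spanned 201 bases each, in Samd15, in Evi5 and in Esr1, the estrogen receptor gene. The 3 longest were MSTRG.25813.2 in Gm15319 with 888714 bases and MSTRG.1346.1 and MSTRG.1346.2 in Ankar with 485907 and 475217 bases.

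Same-strand transcripts often shared the start of a coding messenger RNA. Of the 1172, 477 (40.7%) began within 1000 bases of an annotated coding start and 278 (23.7%) within 50 bases. Of the 1240 opposite-strand transcripts, 44 (3.55%) began within 1000 bases of a coding start and 6 within 50 bases. Within genes of at least 10000 bases the midpoints lay more often toward the 5′ end. The first 20% of the gene held 34.9% of the 1400 transcripts without a strand, 33.4% of the 1087 on the opposite strand and 27.7% of the 747 on the same strand. The last 20% held 11.3%, 13.7% and 14.5%.

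**Figure D1:**
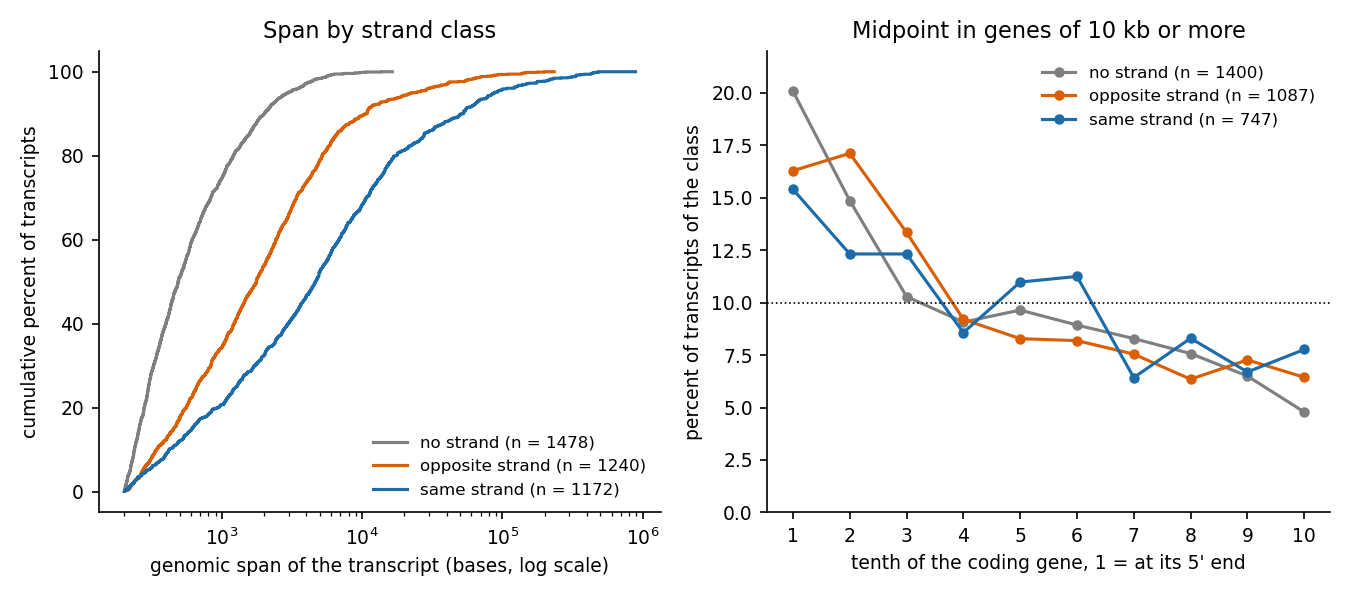
Left, cumulative percent of assembled transcripts against genomic span in bases (log scale) for the 3 strand classes. Right, percent of each class whose midpoint lies in each of 10 equal parts of the coding gene, counted from its 5′ end, in genes of 10000 bases or more; the dotted line marks 10%. The class without a strand is shortest (median 488 bases), and in all 3 classes the first part holds more transcripts than the last.

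The typical assembled transcript was a low but steadily listed RNA. Its median level over the 6 libraries was 1.25 FPKM, and 2629 of the 3890 reached a mean of 1 FPKM, 95 a mean of 10 and 15 a mean of 100. Each library listed 94.5% to 95.1% of them with a value other than the placeholder of 0.0001 FPKM that stands for nothing measured, and 3467 (89.1%) were listed in all 6. Of the listed values, 7 lay below 0.0001 FPKM. Assembled transcripts with no gene name were much alike, with 94.8% to 96.0% listed per library and medians of 1.02 to 1.32 FPKM. For those with a name absent from the coding table it was 89.0% to 90.6% and 0.992 to 1.41 FPKM. The trait is thus not particular to models inside coding genes. Of the annotated noncoding isoforms of coding genes, each library listed 74.0% to 75.9%, with a median of 0.238 to 0.306 FPKM. The assembled models were drawn from the reads of these libraries and the annotated ones were not, and the part of this in the difference was not tested.

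Over all 3890 transcripts, 1339 (34.4%) had a mean level above the sum of their coding gene. Among the 2760 transcripts whose coding gene summed to at least 1 FPKM, the median ratio of the transcript's FPKM to the coding sum was 28.0%, with a 10th to 90th percentile range of 5.11% to 104%. The ratio was 35.6% without a strand, 19.2% on the opposite strand and 35.1% on the same strand. The lower ratio on the opposite strand went with higher coding sums and not with lower transcript levels. In the same order, the median coding sum of this set was 2.77, 7.47 and 4.12 FPKM. The median level of all transcripts of the class was 1.02, 1.54 and 1.44 FPKM. The transcript stood above the coding sum in 294 of the 2760 (10.7%) and reached at least 10 times that sum in 9. The levels of transcript and coding gene were weakly related across transcripts, with a Spearman rho of 0.177 without a strand (n = 876), 0.102 on the opposite strand (n = 1043) and 0.182 on the same strand (n = 841), over means that share the same 6 libraries. In 129 of the 3890 the coding gene was listed at 0 in all 6 libraries.

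**Figure D2:**
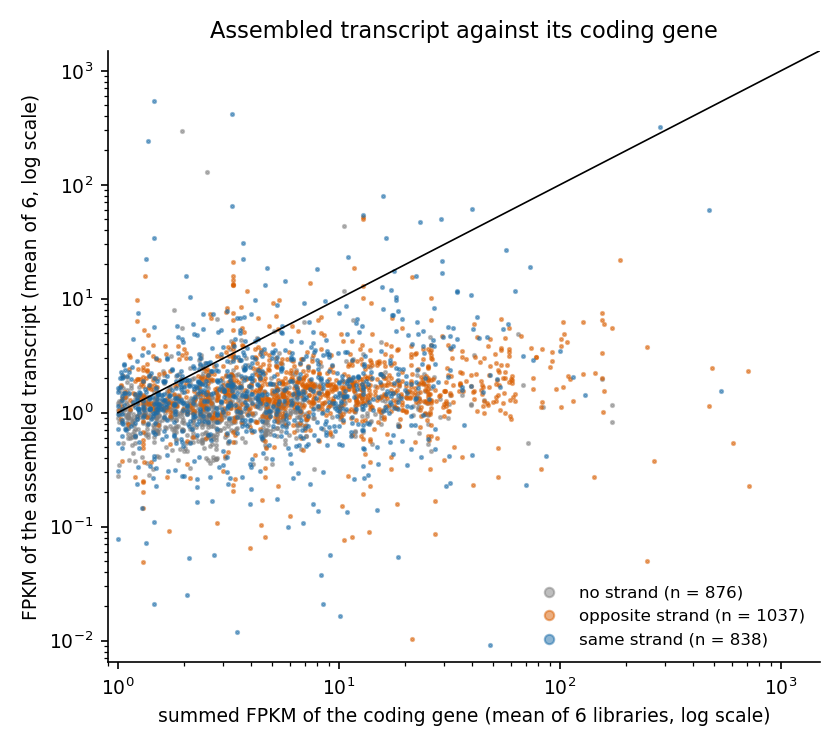
Mean FPKM of each assembled transcript over the 6 libraries against the summed FPKM of its coding gene, both on log scales, for 2751 transcripts above 0 in genes of at least 1 FPKM, coloured by strand class. The black line marks equal levels; most points lie below it and their height changes little along the axis.

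The few very abundant members held much of the total. The 10 highest made up 38.8% to 56.4% of the members' summed FPKM per library, and 5 of those 10 lie where RefSeq places a gene of a small structured RNA. Among the 20 highest this held for 12, among the 50 highest for 21, and among all 3890 for 82 (2.11%). These counts take several models of 1 locus separately: the 5 carry the names of Ankar, Rdm1 and Nemf only. Those 5 spanned 14566 to 485907 bases, against a median of 1196 over all members. A longer span can hold more genes, and the part of span in these shares was not tested. The build of the deposited positions is not given, but of 21198 shared gene symbols 21195 overlapped the RefSeq gene of that name and 83.8% had an end within 50 bases of it.

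Ankar, which codes for an ankyrin and armadillo repeat protein, named the highest member. MSTRG.1346.2 (chr1:72236957-72712173, same strand) overlapped 6 other coding genes and held 3 snRNA genes, which make the RNA core of the spliceosome. It had 1853, 1937 and 1073 FPKM in controls 1, 2 and 3 and 2233, 1785 and 3251 FPKM in PAMK 1, 2 and 3. The groups overlapped (limma adjusted p 0.906), and the Ankar coding transcripts were listed at 0 in all 6 libraries.

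Rdm1, the gene of a RAD52-motif protein, named several nearly identical models around 2 snRNA genes. MSTRG.5400.1 (chr11:101627366-101641931) had 2723, 737 and 0 FPKM in controls and 2413, 0 and 4694 FPKM with PAMK. MSTRG.5400.3, which starts 3 bases later and ends 7 bases later, had 329, 281 and 644 FPKM in controls and 232, 561 and 0.00115 FPKM with PAMK. Libraries at 0 and libraries above 2000 FPKM stood in the same group, and reads of such near copies can be split between them, so the level of each model is uncertain.

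Nemf, a component of ribosome quality control, named MSTRG.6359.1 (chr12:69305976-69361481), which reaches over Rn7s2, a gene of the signal recognition particle RNA. It was listed at 1434 FPKM in control 3, 1099 FPKM in PAMK 1 and 0 in the other 4 libraries, while the Nemf coding sum stayed between 2.87 and 3.89 FPKM. Eapp, an E2F-associated phosphoprotein gene, named MSTRG.6250.1 (chr12:54674429-54738622), which holds 7 snRNA genes. It had 159, 220 and 159 FPKM in controls and 308, 298 and 304 FPKM with PAMK. The groups did not overlap, but the test did not pass (log2 difference 0.78 ± 0.232 SE, limma p 0.0141, adjusted p 0.816).

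Other abundant members held no RefSeq small RNA gene. Ctse, the gene of the aspartic protease cathepsin E, held MSTRG.1856.1 on its opposite strand (chr1:131646127-131646973, 847 bases). Its levels were 844, 875 and 837 FPKM in controls and 958, 980 and 922 FPKM with PAMK, the steadiest of the 8 highest members, while Ctse itself was listed at 0 throughout. The PAMK values all lay above the control values, by 0.16 ± 0.268 (SE) on the log2 scale (limma adjusted p 0.965). That SE is moderated by limma toward rows of like level and is wider than the spread of this transcript alone. Its own means were 852 ± 20.2 FPKM in controls and 953 ± 29.6 FPKM with PAMK (SD, n = 3).

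Malrd1, a gene of large MAM and LDL-receptor repeats whose coding sum was also listed at 0, held MSTRG.14568.1 (chr2:16024524-16028947). It had 93.4, 152 and 395 FPKM in controls and 575, 577 and 515 FPKM with PAMK. Again the groups did not overlap and the test did not pass (log2 difference 1.64 ± 0.527 SE, limma p 0.0190, adjusted p 0.839).

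Of the 6 members with the highest ratio to a coding gene of at least 1 FPKM, 2 were the long models in Eapp and Nemf and the other 4 spanned 510 to 1738 bases. Coro2b, a coronin of the actin cytoskeleton, summed to 1.46 FPKM. Its MSTRG.27770.1 (chr9:62441580-62442516) had 425, 0 and 830 FPKM in the control libraries and 367, 819 and 815 FPKM in the PAMK libraries, a mean of 372 times the coding sum. A neighbouring Coro2b model, MSTRG.27766.2 (chr9:62442996-62443532), was listed at 0 in the 3 controls, at 143 and 59.6 FPKM in PAMK 1 and 2, and at 0 in PAMK 3. It did not pass (limma adjusted p 0.858), and passed without PAMK 3 (0.00802).

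Grk5, a kinase of G protein-coupled receptors, held the unstranded MSTRG.14447.1 (chr19:60929672-60931409). It had 573, 127 and 278 FPKM in controls and 221, 308 and 259 FPKM with PAMK, while the Grk5 coding sum stayed between 1.85 and 2.06 FPKM. Chd9, a chromatin remodeller, held MSTRG.26487.1 (chr8:90888790-90889299), at 11.1 to 62.2 FPKM in 5 libraries and 604 FPKM in PAMK 3. In both the groups overlapped.

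Before the comparison of PAMK with control, 1 library has to be set apart. Control 1 had a median of 1.63 FPKM over the assembled transcripts, against 1.14 and 1.09 in controls 2 and 3 and 1.24, 1.25 and 1.32 with PAMK. It was the highest of the 6 libraries for 1891 of the 3890 transcripts (48.6%), and the other 5 were highest for 7.48% to 12.8%. On the opposite strand control 1 was highest for 58.2%, without a strand for 48.3% and on the same strand for 38.8%. The medians of assembled transcripts with no gene name (1.32 against 1.02 to 1.16 FPKM) and of annotated noncoding isoforms (0.306 against 0.238 to 0.294 FPKM) were highest in control 1 too. The median of tested coding gene sums was not, at 4.03 FPKM in control 1 against 4.03 to 4.43 in the other 5. What sets control 1 apart was not tested. Between libraries, the assembled transcripts correlated at 0.588 to 0.643 among controls, 0.663 to 0.681 among PAMK libraries and 0.593 to 0.649 across the groups (Pearson r across transcripts, which are not independent replicates).

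**Figure D3:**
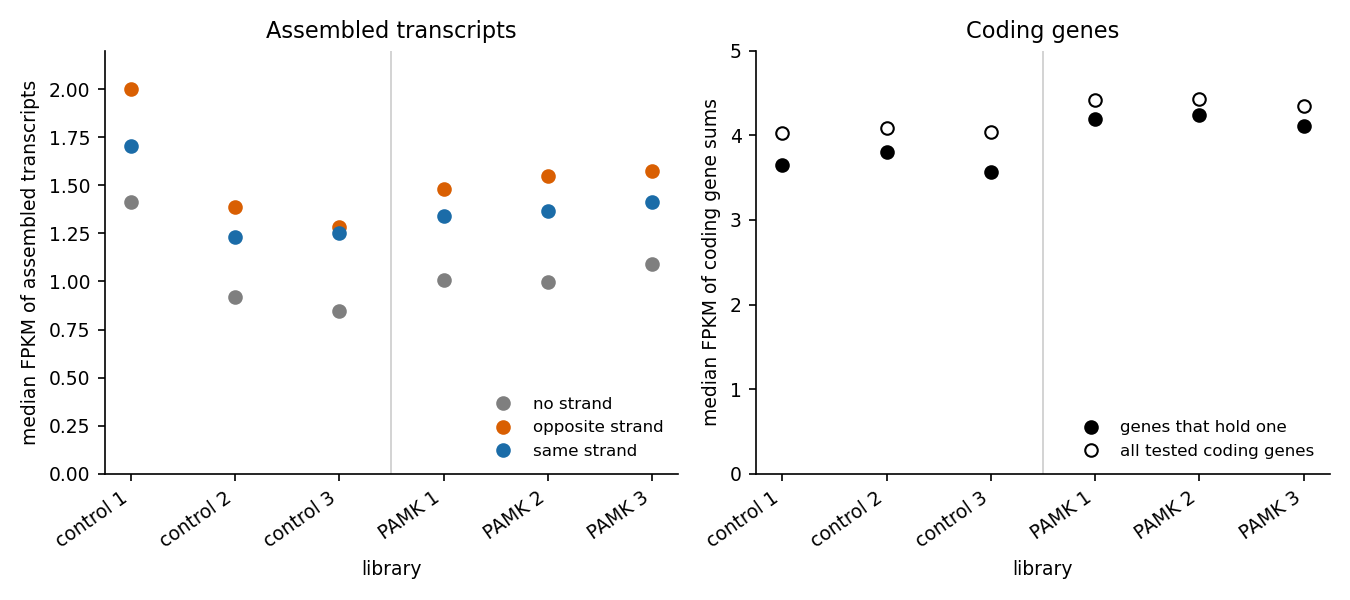
Left, median FPKM of the assembled transcripts in each of the 6 libraries, by strand class. Right, median FPKM of coding gene sums in genes with a mean of at least 0.5 FPKM, for genes that hold an assembled transcript and for all 9781 tested coding genes. Control 1 is highest in all 3 classes on the left and is not highest on the right.

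The total of the assembled transcripts did not separate the groups. Their FPKM summed to 17906, 13458 and 15698 in controls and to 17937, 15228 and 20769 with PAMK, and the ranges overlapped. The means were 15687 ± 2224 and 17978 ± 2771 FPKM (SD, n = 3; exact two-sided permutation test p = 0.4). With 3 against 3 libraries this test cannot go below 0.1. Without the 10 most abundant members the means were 8713 ± 736 and 8714 ± 303 FPKM (exact permutation p = 1.0), so nearly all of the difference lay in those 10.

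The number of transcripts listed with a value other than the placeholder was 3696, 3698 and 3676 in controls and 3699, 3699 and 3687 with PAMK (exact permutation p = 0.5). The share of a transcript in the sum of transcript and coding gene had a median of 28.5%, 19.9% and 19.1% in controls and 19.4%, 20.1% and 21.1% with PAMK, over 2728 transcripts (exact permutation p = 0.9). Control 1 alone stood out. The mean difference of PAMK from control was -2.34 percentage points with it and 0.662 without it.

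Of the 3890 transcripts, 3846 passed the minimum mean of 0.1 FPKM and were tested with limma on log2(FPKM + 0.1) among all 23670 noncoding transcripts that passed. At an adjusted p under 0.05, 1 of the 3846 was called, and it was lower with PAMK. Over all noncoding transcripts tested 0.038% were called, 0.0253% higher and 0.0127% lower. An unadjusted p under 0.05 was reached by 207 of the 3846 (5.38%), close to the 5.76% over all noncoding transcripts tested. Of these 116 were higher with PAMK (3.02% of those tested, against 3.62% of all noncoding transcripts) and 91 lower (2.37%, against 2.15%) as deposited. With equal library medians 108 were higher and 122 lower, after quantile normalization 110 and 121, and without control 1 261 and 69, so the balance is given no direction. The groups did not overlap in 196 transcripts that were higher with PAMK (5.1%, against 7.06% of all tested) and in 162 that were lower (4.21%, against 4.23%). The median log2 difference of the 3846 was 0.0050 against 0.046 over all noncoding transcripts tested, and 0.19 against 0.16 without control 1.

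Changes spread most widely among the transcripts that begin at coding starts. Of the 508 tested that began within 1000 bases of a coding start, 49 had an unadjusted p under 0.05 (9.65%), 24 higher and 25 lower. Their log2 differences had a 5th to 95th percentile range of -2.12 to 2.00, against -0.96 to 1.11 over all noncoding transcripts tested. By strand the share at an unadjusted p under 0.05 was 7.65% of 1150 on the same strand, 5.55% of 1478 without a strand and 3.04% of 1218 on the opposite strand. These shares are descriptions, and 0 of the 508 passed after adjustment in limma.

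Cds2, which makes CDP-diacylglycerol for phosphatidylinositol synthesis, held the called transcript. MSTRG.16071.1 is an unstranded model of 349 bases (chr2:132290025-132290373) that lies 55.3% of the way along the gene. It was listed at 12.4, 11.8 and 14.9 FPKM in controls and at 0 in the 3 PAMK libraries (limma adjusted p 0.000433). The Cds2 coding sum was 16.4, 13.8 and 6.64 FPKM in controls and 6.08, 13.1 and 13.8 FPKM with PAMK, overlapping, with most of it in the full-length isoform ENSMUST00000103181. The transcript's change minus that of the gene had the limma p 1.6e-05 and an adjusted p of 0.0852. The transcript passed in all 6 fits that left out 1 library (adjusted p 0.00347 to 0.0181).

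Mettl27, a methyltransferase-like gene, held the next. MSTRG.21611.6 (chr5:134932406-134941097, 8692 bases) begins at the first base of the coding isoform ENSMUST00000136246. It was listed at 1.97, 0.686 and 2.25 FPKM in controls and at 0 in the 3 PAMK libraries (limma adjusted p 0.139, and 0.0482 without control 2). The coding sum ran the other way, at 0.521, 0.429 and 0.0567 FPKM in controls and 1.14, 2.28 and 1.81 FPKM with PAMK, with no overlap (log2 difference 1.03 ± 0.225 SE, limma adjusted p 0.305). The difference between them did not pass (limma p 0.000376, adjusted p 0.271). With 8 coding isoforms at this locus, reads can be divided among near copies, and the part of this in the values was not tested.

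Creb3 codes for a transcription factor held in the endoplasmic reticulum membrane until it is cleaved. MSTRG.18550.2 (chr4:43562651-43565316) begins 162 bases before the nearest coding start and ends where the coding isoform ENSMUST00000132631 ends. It had 3.86, 4.78 and 3.70 FPKM in controls and 0.373, 0 and 0 FPKM with PAMK, and the groups did not overlap. The Creb3 coding sum was level, at 19.9, 20.6 and 19.8 FPKM in controls and 19.3, 19.8 and 21.1 FPKM with PAMK. The limma log2 difference was -4.64 ± 0.633 (SE, adjusted p 0.227) for the transcript and -0.0035 ± 0.0567 for the gene. Without PAMK 1 the transcript passed (adjusted p 0.0140).

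Tmem41b, a lipid scramblase of the endoplasmic reticulum, held MSTRG.24970.11 (chr7:109980352-109986287, minus strand), which begins 28 bases before the nearest coding start. It had 0.705, 0.807 and 0.673 FPKM in controls and 0.146, 0.0730 and 0.0402 FPKM with PAMK. The groups did not overlap (log2 difference -2.19 ± 0.329 SE, limma adjusted p 0.266). The coding sum overlapped between the groups, at 1.88, 3.74 and 1.94 FPKM and 1.61, 2.51 and 2.23 FPKM. The annotated noncoding isoform ENSMUST00000207300, which begins at the same base, ran the other way. It had 0.811, 0.755 and 0.633 FPKM in controls and 1.01, 0.986 and 1.00 FPKM with PAMK. A longer model, MSTRG.24970.3, had 4.61, 3.22 and 4.45 FPKM in controls and 3.70, 2.08 and 1.47 FPKM with PAMK, overlapping.

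Serp1, which guards new membrane proteins in the endoplasmic reticulum, held a member above its own coding sum. MSTRG.17069.2 (chr3:58521907-58525892) begins at the annotated coding start and overlaps 1 other coding gene. It had 24.1, 25.5 and 24.0 FPKM in controls and 16.5, 12.7 and 9.89 FPKM with PAMK, against a coding sum of 3.17 to 5.37 FPKM. Its log2 difference of -0.94 ± 0.219 (SE) did not pass (limma adjusted p 0.711). In 1810062G17Rik, MSTRG.16926.2 (chr3:36475964-36481253) had 1.44, 1.07 and 1.80 FPKM in controls and 0, 0.456 and 0.132 FPKM with PAMK (limma adjusted p 0.711). The coding sum was 0.712, 0.681 and 0.488 FPKM in controls and 1.25, 0.785 and 0.290 FPKM with PAMK. A near copy, MSTRG.16926.3 (chr3:36475967-36481383), ran the other way, at 0 in the controls and 0.129, 0 and 1.24 FPKM with PAMK.

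**Figure D4:**
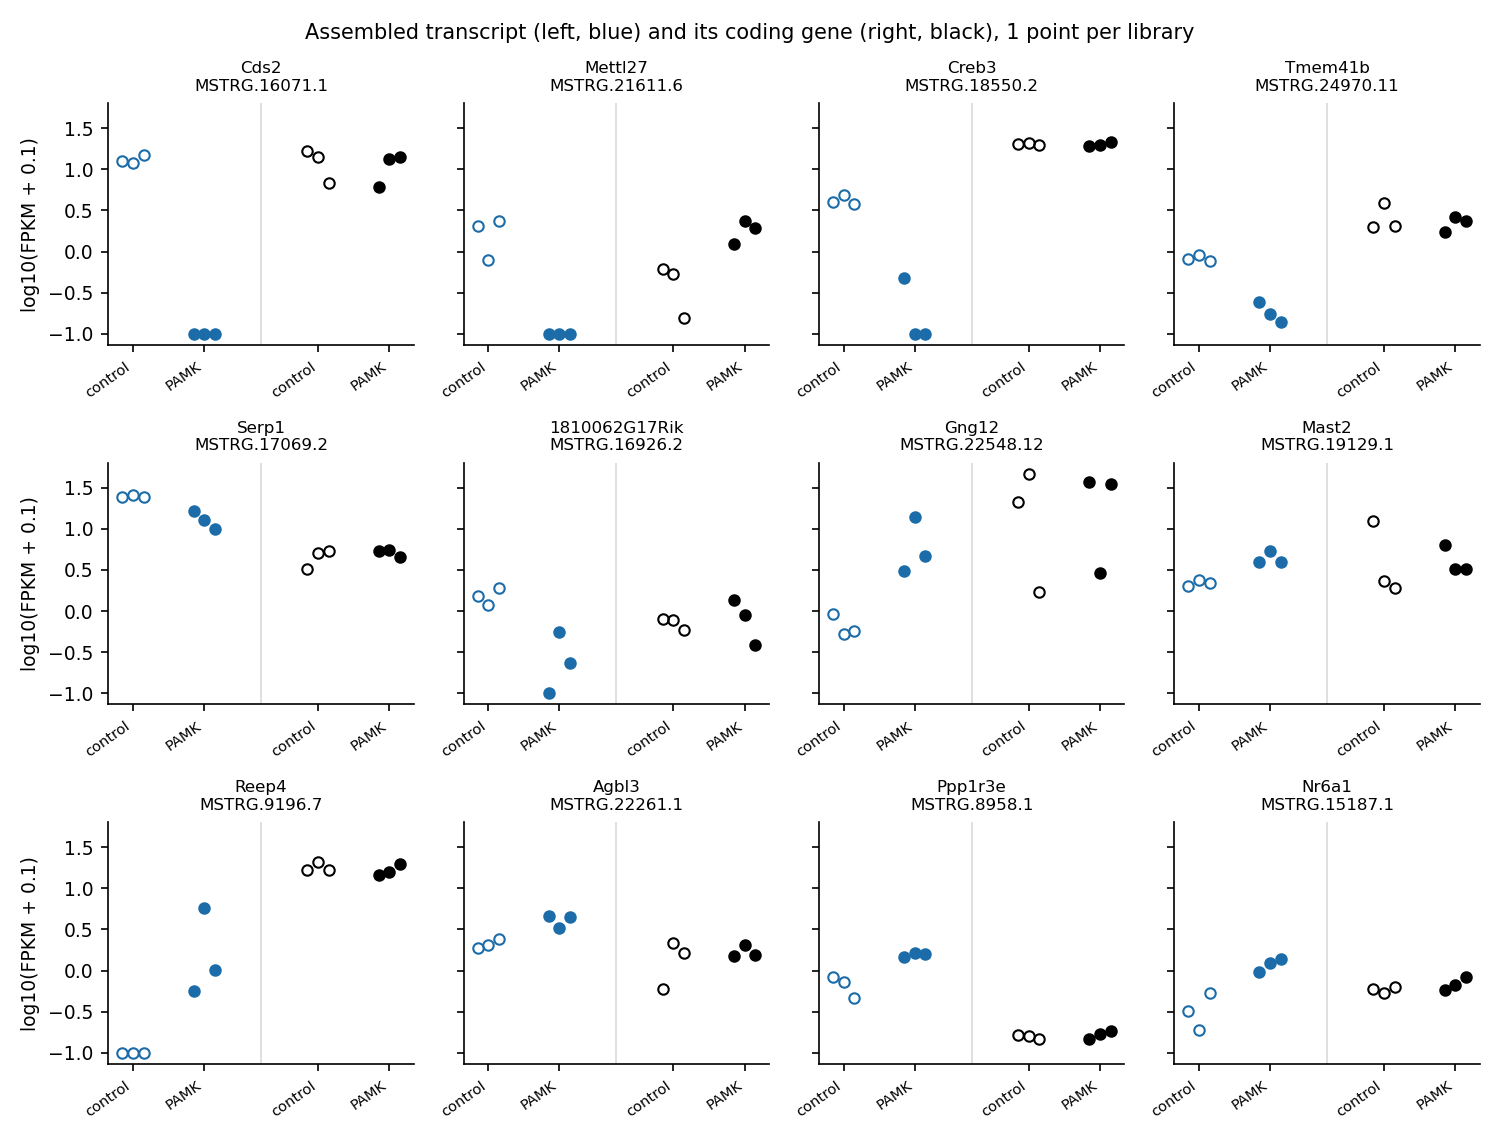
Values of 12 assembled transcripts (blue, left of the grey line) and of their coding genes (black, right) on the log10(FPKM + 0.1) scale, 1 point per library, open for control and filled for PAMK. These are the 6 lower and the 6 higher with PAMK that had the smallest p, groups that do not overlap and at least 0.5 FPKM in a group. The Cds2, Mettl27 and Reep4 transcripts sit at the bottom of the scale, which is 0 FPKM, in all libraries of 1 group; the Creb3 coding gene is level.

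On the side higher with PAMK none passed. Gng12, a G protein gamma subunit, held MSTRG.22548.12 (chr6:66910748-67017929), with 0.835, 0.423 and 0.468 FPKM in controls and 2.93, 13.8 and 4.55 FPKM with PAMK (log2 difference 3.15 ± 0.581 SE, limma adjusted p 0.387). Its coding sum swung within each group, at 21.1, 46.3 and 1.58 FPKM and 37.1, 2.82 and 35.2 FPKM. In control 3, where the coding sum was lowest, another assembled Gng12 model of 124751 bases, MSTRG.22548.9, was listed at 31.4 FPKM, and it was at 0 in the other 5 libraries.

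Mast2, a microtubule-associated kinase, held MSTRG.19129.1 on its opposite strand (chr4:116309791-116310058). It had 1.93, 2.30 and 2.10 FPKM in controls and 3.85, 5.31 and 3.88 FPKM with PAMK, a log2 difference of 1.00 ± 0.203 (SE, limma adjusted p 0.492). The coding sum, at 12.4, 2.22 and 1.83 FPKM and 6.24, 3.19 and 3.14 FPKM, overlapped between the groups.

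Agbl3, a carboxypeptidase that trims glutamates from tubulin, held MSTRG.22261.1 (chr6:34782835-34783050). It had 1.78, 1.92 and 2.31 FPKM in controls and 4.48, 3.18 and 4.32 FPKM with PAMK (limma adjusted p 0.669), beside a coding sum of 0.490 to 2.09 FPKM, and stood below that sum in control 2 alone. Ppp1r3e, a subunit that brings a phosphatase to glycogen, held MSTRG.8958.1 (chr14:54873373-54874820). It had 0.734, 0.629 and 0.366 FPKM in controls and 1.37, 1.54 and 1.51 FPKM with PAMK (limma adjusted p 0.669). The coding sum of Ppp1r3e was at most 0.0827 FPKM and was not tested.

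Nr6a1, an orphan nuclear receptor, held MSTRG.15187.1 (chr2:38865656-38867009). It had 0.221, 0.0884 and 0.441 FPKM in controls and 0.865, 1.15 and 1.27 FPKM with PAMK, beside a coding sum of 0.439 to 0.731 FPKM (limma adjusted p 0.701 for the transcript). In each of these the transcript groups did not overlap and the test did not pass. Most of the other assembled models in Nr6a1 had a lower mean with PAMK. MSTRG.15190.1, for example, had a mean of 1.14 FPKM in controls and 0.441 with PAMK. Some had a higher one, such as MSTRG.15172.1 at 0.240 and 0.624 FPKM, and both overlapped between groups.

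A value other than the placeholder in every library of 1 group and in none of the other was rare. It was met by 3 of the 3846 for controls (0.078%, against 0.0338% of all noncoding transcripts tested) and by 4 for PAMK (0.104%, against 0.0803%). The 3 seen in controls were those of Cds2 and Mettl27 and MSTRG.3633.1 in Eea1, an early endosome tether, at 2.63, 1.95 and 0.0406 FPKM. The Eea1 coding sum stayed between 4.79 and 5.48 FPKM in all 6 libraries.

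The 4 seen with PAMK varied widely between those libraries, and 1 of them, in Mrps36, rests on a value below 0.0001 FPKM, without which there are 3. MSTRG.9196.7 in Reep4, a gene that shapes endoplasmic reticulum membranes, had 0.471, 5.70 and 0.926 FPKM. It has the same start and end as another model, MSTRG.9196.6, at 0.239 to 4.18 FPKM. MSTRG.5286.3 in the keratin gene Krt10 had 3.43, 0.0541 and 0.459 FPKM, and MSTRG.8155.6 in Mrps36 had 5.00, 7.9e-05 and 0.0560 FPKM. MSTRG.14771.4, opposite to Abi1 of the actin-regulating WAVE complex, had 0.422, 0.724 and 0.00484 FPKM. Other models on that strand were listed in controls too. MSTRG.14771.2 had 84.0, 68.8 and 88.6 FPKM in controls and 4.27, 55.8 and 0 with PAMK. MSTRG.14771.5, with the same start, had 0.000248, 24.8 and 0.000164 FPKM and 117, 49.6 and 122 FPKM. Mean coding sums of Reep4, Krt10, Mrps36 and Abi1 were 17.9, 1.03, 7.18 and 11.8 FPKM in controls and 16.6, 1.50, 10.3 and 14.0 with PAMK. The adjusted p of these 4 transcripts in limma ran from 0.576 to 0.906. Swings from 0 to 10 FPKM or more within a single group were more frequent, in 40 of the 3846 (1.04%, against 0.52% of all noncoding transcripts tested).

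The coding genes were tested on log2(FPKM + 1) of the sum of their coding transcripts. Of the 2386 genes with an assembled transcript, 1918 passed the minimum mean of 0.5 FPKM and 1 was called by limma, lower with PAMK (over all 9781 coding genes tested, 0.0716% were called, 0.0204% higher and 0.0511% lower). An unadjusted p under 0.05 was reached by 190 of the 1918 (9.91%), close to 10% of all tested coding genes. As deposited 148 of the 190 were higher with PAMK (7.72% of those tested, against 7.3% of all) and 42 lower (2.19%, against 2.71%). With equal medians 75 were higher and 120 lower, and after quantile normalization 89 and 81. The median coding gene sum itself was higher with PAMK, at 3.65, 3.80 and 3.56 FPKM in controls and 4.19, 4.24 and 4.11 FPKM with PAMK for genes that hold an assembled transcript (exact permutation p = 0.1, the smallest possible). The median log2 difference was 0.088 for these genes and 0.057 for all coding genes, and 0.0046 and -0.026 with equal medians.

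Glrx, the redox enzyme glutaredoxin, was the called gene, with coding sums of 12.1, 12.5 and 16.2 FPKM in controls and 0.213, 0.0832 and 0.942 FPKM with PAMK (limma adjusted p 0.0460). It was called in the fit without PAMK 3 and in none of the other 5 fits that left out 1 library, and it was lost under several other settings of the test. Its 2 assembled transcripts lay on the opposite strand at the 3′ end of the gene. MSTRG.7935.1 (chr13:75849345-75851051) had 1.52, 2.87 and 0.875 FPKM in controls and 1.44, 1.79 and 1.32 FPKM with PAMK, and MSTRG.7935.2 had 1.01, 0.483 and 0.595 FPKM and 0.467, 1.05 and 0.595 FPKM. Both overlapped between groups, and the difference of their change from that of Glrx had the limma p 0.00128 and 0.000957 (adjusted p 0.467 and 0.403).

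The change of a transcript minus that of its gene could be tested for the 3111 transcripts whose gene also passed its minimum. None was called by limma, and 1 was called with a pseudocount of 0.01 FPKM, the Cds2 transcript. Over all 16016 noncoding transcripts tested this way, 0.00624% were called. An unadjusted p under 0.05 was reached by 146 of the 3111 (4.69%, against 5.73% of all), 37 of them with the transcript's change above that of the gene (1.19%, against 2.43% of all) and 109 below it (3.5%, against 3.3%). Without control 1 these numbers were 70 and 78, and the median of the difference moved from -0.14 to 0.060 on the log2 scale, so the lean to the lower side rested on that library.

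**Figure D5:**
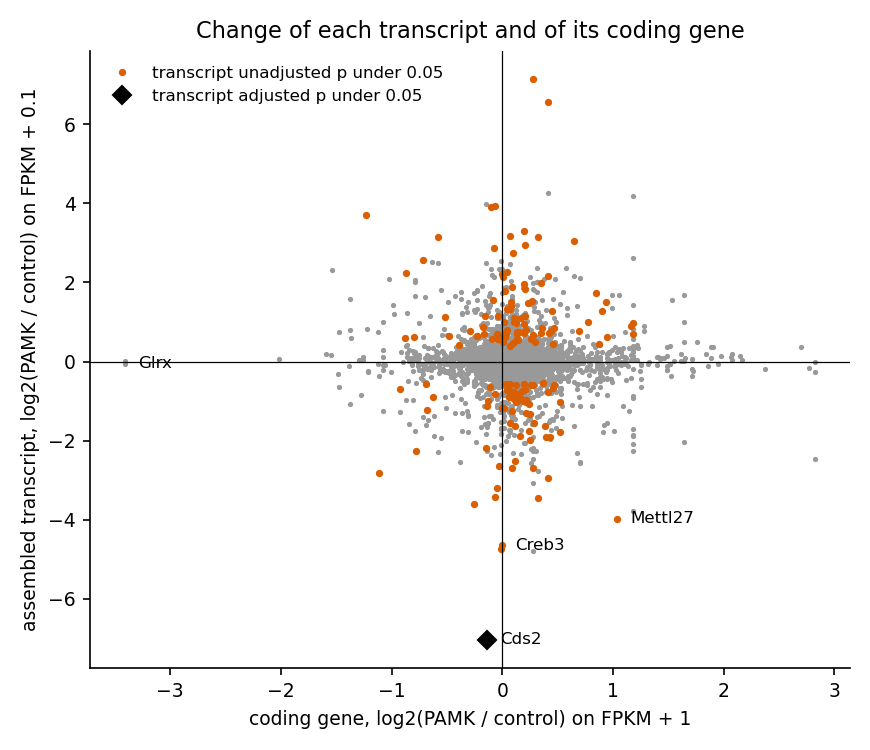
Log2 difference between PAMK and control of each assembled transcript (on FPKM + 0.1) against that of its coding gene (on FPKM + 1), for the 3111 transcripts with both tested. Orange points have an unadjusted transcript p under 0.05 and the black diamond an adjusted p under 0.05. The Cds2 and Creb3 transcripts lie far below 0 at coding changes near 0, and Glrx lies far to the left at a transcript change near 0.

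A few genes held many assembled transcripts. Galnt2l held 36, of which 26 had no strand. Its 1 coding transcript is drawn over 4434882 bases of chromosome 8, was listed at 0 in all libraries and spans 73 other coding genes, and 24 of the 36 transcripts overlap those genes. Their levels ran from 0.611 to 16.9 FPKM with a median of 1.06, 5 had an unadjusted p under 0.05 (5.76% of all noncoding transcripts tested) and 0 were called by limma (0.038% of all).

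Ahnak, the gene of a giant scaffold protein with a span of 87431 bases, held 24, and 23 of them lay on its opposite strand. Their levels ran from 0.207 to 20.8 FPKM with a median of 3.76, against a coding sum of 1.20 ± 0.423 FPKM in controls and 5.42 ± 4.23 FPKM with PAMK (SD, n = 3; limma adjusted p 0.643). Of the 24, 15 had a log2 difference above 0 and 9 below, from -3.77 to 4.19, and 0 were called.

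The genes that limit such RNA were read from 2 lists. Of 27 genes of the U1 snRNP and of cleavage and polyadenylation, 27 were tested and 0 called by limma, with 13 above 0 and 14 below and a median log2 difference of -0.012. At an unadjusted p under 0.05 there were 5, 4 higher and 1 lower with PAMK, where all coding genes had 10% (7.3% higher and 2.71% lower). Among the tested genes that hold an assembled transcript, the balance turned with equal medians (75 higher and 120 lower). It was not counted that way for this list or for all coding genes. Snrpa, a protein of the U1 snRNP, had 41.8 ± 0.306 FPKM in controls and 46.4 ± 1.36 with PAMK (SD, n = 3). Cpsf6, a cleavage factor subunit, had 9.89 ± 1.94 and 17.6 ± 2.88 FPKM, and Fip1l1, which recruits poly(A) polymerase, 1.10 ± 0.833 and 3.18 ± 0.425 FPKM. The scaffold gene Sympk had 1.83 ± 1.31 and 9.50 ± 5.71 FPKM. Cdk12, a kinase that keeps RNA polymerase past early polyadenylation sites, was the 1 of the 5 with lower values, at 3.86 ± 1.43 and 2.04 ± 0.512 FPKM. Their adjusted p in limma ran from 0.315 to 0.498.

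Of 31 genes of nuclear RNA decay in the table, 28 were tested and 0 called by limma, 17 above 0 and 11 below, with a median of 0.050 against 0.057 for all coding genes. An unadjusted p under 0.05 was reached by 3, a share near the 10% of all coding genes. They were Exosc3, an exosome cap subunit (2.99 ± 0.507 and 4.22 ± 0.384 FPKM), Zc3h18, which links the cap to the exosome (9.21 ± 1.50 and 11.9 ± 0.871 FPKM), and Rbm7 of the NEXT adaptor (1.33 ± 0.112 and 0.619 ± 0.276 FPKM). Each list had 7 genes that themselves held an assembled transcript, of 27 and of 31 genes. Of the tested coding genes 1918 of 9781 held one, and of all coding genes 2386 of 21771.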

How the data were processed

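Long RNA of 6 libraries (3 control, 3 PAMK) was used; the 6 small RNA libraries were not used here. Per the submitters' processing notes reads were handled with FastQC, cutadapt, HISAT2, StringTie and edgeR. The sources used here give no version, build, annotation or strand setting. The deposited values, called normalized counts in the file headers, were taken as FPKM made by the authors, since they are not whole and their sums differ between columns. Depth is therefore unknown, and no interval is given. The placeholder 0.0001 was set to 0, and coding FPKM were summed by gene name.

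Transcripts entered the test from a mean of 0.1 FPKM, on log2(FPKM + 0.1), and genes from a mean of 0.5 FPKM, on log2(FPKM + 1). The difference of transcript and gene was tested with 0.1 added to both. The two-sided limma tests (version 3.58.1, R 4.3.3, variance trend on level) were fitted on each whole table with Benjamini-Hochberg adjustment at 0.05. The SE of a log2 difference is the moderated limma value, drawn toward that of rows of like level. Fold changes understate the change of low rows. Values of 1 per library were compared with exact permutation tests in scipy 1.17.1. The steps were tested on simulated data.

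Members, gene lists and rules were chosen with earlier results of these data known. Named were called transcripts, up to 6 each way with the smallest p, no overlap of groups and at least 0.5 FPKM in a group, the 8 highest levels, the 6 highest ratios to the gene, the 3 longest and 3 shortest, the 3 genes with the most members and up to 2 members of a called gene. The result of 1 gene named by this rule is not reported here. Transcripts listed in 1 group only, other models at the same loci and the antisense transcripts at coding starts were added after their values were seen. Alternatives were other pseudocounts, filters, scalings and eBayes settings, a replicate block, leaving out each library, and narrower member sets.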

Additional observations from a re-analysis of the deposited data

How the results depend on the processing

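The Cds2 transcript stayed the 1 call among assembled transcripts with pseudocounts of 0.01 and 1 FPKM, without a filter, with a minimum mean of 0.5 FPKM, with equal medians, quantile normalization, no eBayes trend and robust eBayes, and within the coding span or away from other coding genes (the last chosen after seeing the data). Leaving out 1 library gave 1 to 7 calls: 3, 4 and 1 when the library left out was control 1, 2 or 3, and 7, 4 and 2 when it was PAMK 1, 2 or 3, with the Cds2 transcript in each. For coding genes the count of 1 fell to 0 with pseudocounts of 0.1 and 0.5, without a filter, without a trend and with robust eBayes, and lay between 0 and 4 when 1 library was left out (4, 0 and 3 for controls 1, 2 and 3, and 4 for PAMK 3). For the transcript minus the gene the count of 0 became 1 with a pseudocount of 0.01, and 0 to 1 with 1 library left out (the Creb3 transcript, without PAMK 1). With a replicate block all 3 counts were 0 in limma, with 172, 136 and 119 at an unadjusted p under 0.05, and the Cds2 transcript had an adjusted p of 0.0752 (0.000221 to 0.0181 over its other alternatives). The replicate numbers share only a number: deviations of same-numbered libraries correlated at -0.048, 0.0041 and -0.068, and control 1 correlated best with PAMK 3 (0.086). The difference in summed FPKM kept its sign throughout, from 0.678 without the 10 most abundant members to 3666 without PAMK 2, with a paired exact sign-flip permutation p of 0.25. When 1 library was left out, the difference in number listed ran from -2 to 9, in median share from -4.05 to 0.662 percentage points and in median FPKM from -0.11 to 0.16, the last chosen after seeing the data; the sign turned without control 3 for the number, without control 1 for the share, and without control 1 or PAMK 1 for the median. The cause of these moves was not tested. Unknown depth limits what can be said of transcripts near 0.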

Other observations

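Transcripts that start opposite a coding start were few here, and the 5 described were taken by position and level after the data were seen. A coding start here is that of any coding isoform, so it can lie inside the gene. The transcripts in Cdkn1a, Caprin1 and Nr2f2 lie within the gene, with midpoints at 0.682, 0.478 and 0.393 of its span from the 5′ end. The transcript in Pianp begins 121 bases downstream of the nearest coding start. Cdkn1a, the gene of the cell cycle inhibitor p21, held MSTRG.11969.1 on its opposite strand (chr17:29097418-29097841), 59 bases from a coding start. It had 4.93, 4.52 and 5.32 FPKM in controls and 4.89, 4.25 and 4.27 FPKM with PAMK, beside a Cdkn1a coding sum of 50.9 to 81.7 FPKM, and neither separated the groups (limma adjusted p 0.943 and 0.843). Caprin1, an RNA-binding protein of stress granules, held MSTRG.15659.1 (chr2:103779598-103782511), at 3.76, 3.42 and 3.00 FPKM in controls and 2.74, 2.84 and 2.81 FPKM with PAMK, which did not overlap and did not pass (limma adjusted p 0.906). Nr2f2, the nuclear receptor COUP-TFII, held MSTRG.24477.1 (chr7:70360594-70361249), at 6.55, 8.46 and 6.81 FPKM in controls, 9.44 and 9.08 FPKM in PAMK 1 and 2 and 0 in PAMK 3, while its coding sum was 15.6 to 21.9 FPKM in every library. MSTRG.11583.1 in Ermard had 3.12 to 4.85 FPKM and MSTRG.23237.1 in Pianp 2.18 to 5.43 FPKM, with overlapping groups in both.

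A model at the gene of RNase P RNA carried a coding gene's name. MSTRG.8830.3, with a span of 319 bases and a mean of 108 FPKM, carries the name of Ccnb1ip1 and lies where RefSeq places Rpph1, the gene of that RNA, and the part of that RNA in its level was not tested.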
